A study of Mus musculus with 3 samples.

Results

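The histone and tRNA gene clusters of the mouse were taken as every row of the KAP1 and H3K9me3 lists whose midpoint lay in mm9 between 21 and 24 Mb on chromosome 13 (histone cluster 1, with tRNA genes and vomeronasal receptor genes) or between 96 and 97 Mb on chromosome 3 (histone cluster 2, with tRNA genes). This gave 247 of the 59075 regions, namely 184 of 19549 KAP1 peaks and 63 of 39526 H3K9me3 regions. The chromosome 13 locus held 149 KAP1 peaks and 49 H3K9me3 regions, and the chromosome 3 locus held 35 and 14. Both lists came from proliferating C2C12 cells, a myoblast line derived from C3H mice and grown in medium with fetal calf serum, with no knockdown, mutation or treatment named for either library. KAP1 was precipitated with a homemade rabbit polyclonal antibody and H3K9me3 with a commercial antibody from Diagenode. There was 1 library per antibody, so no value below has a spread between replicates, no test between groups can be made, and the intervals cover counting error over regions only. The library made without antibody is not analysed here.

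KAP1, also called TRIM28, does not bind DNA by itself. Zinc finger proteins with a KRAB domain can place it on chromatin, where it can recruit SETDB1, an enzyme that trimethylates lysine 9 of histone H3. Replication-dependent histone genes are short genes without introns, kept in clusters and transcribed in S phase to package new DNA. Genes for tRNA are transcribed by RNA polymerase III, whose assembly factor TFIIIC binds promoter elements inside the gene. Vomeronasal receptor genes are expressed in sensory neurons of the vomeronasal organ and are silent in other cell types. In the RefSeq gene table of GRCm38.p6, the gene families on chromosome 13 followed each other as 27 tRNA genes, 19 histone genes, 31 tRNA genes, 5 histone genes, 1 tRNA gene, 75 vomeronasal receptor genes (39 of them pseudogenes), 45 tRNA genes and 32 histone genes. The block of 19 histone genes ran from H2bc13 to H4bc24 and the block of 32 from H4c8 to H2ac1. Of the 56 histone entries on chromosome 13, 2 were pseudogenes. On chromosome 3 the order was 10 histone genes, from H2ac21 to H2bc18, and then 25 tRNA genes. That table is of another build than the peak lists, so it was used for gene order alone, no peak was placed on a gene, and no sequence of a peak is given.

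KAP1 peaks in these loci were dense and many of them scored very high. The score is the authors' own value for a peak. Of the 184 peaks, 67 scored above 1000 (36.4%, 95% Wilson interval 29.8 to 43.6), against 1.65% of the whole KAP1 list. These 67 were 20.7% of all peaks above 1000 in the list, whereas the loci held 0.941% of all KAP1 peaks. On chromosome 13, 59 of 149 peaks scored above 1000, and on chromosome 3, 8 of 35. Density was 49.7 KAP1 peaks per Mb on chromosome 13 and 35 on chromosome 3, against 7.57 over the whole list. H3K9me3 regions were about as dense as elsewhere, with 16.3 per Mb on chromosome 13 and 14 on chromosome 3, against 15.3 over the list.

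The 5 KAP1 peaks ranked first on chromosome 13 lay between 30.6 and 100.4 kb from H3K9me3. The highest score, 3177, belonged to the peak at 22113885 to 22114634, which lay 30.6 kb from the nearest H3K9me3 region. The next 4 by rank all scored 3100 and were ordered by width. The peak at 23608751 to 23610466 was 1716 bp wide and lay 83.0 kb from H3K9me3. The peak at 21946763 to 21948296 lay 100.4 kb away, the peak at 23537458 to 23538975 lay 88.8 kb away, and the peak at 23591697 to 23593139 lay 100.3 kb away. A score of exactly 3100 was given to 13 peaks of the loci and to 99 of the whole list, so rank within that group rests on width. The 12 of them on chromosome 13 lay from 3.23 kb (21291795 to 21292609) to 110.01 kb (23558700 to 23559416) from H3K9me3.

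On chromosome 3 the peak ranked first was at 96303202 to 96305802, with a score of 3100, a width of 2601 bp and 5.30 kb to the nearest H3K9me3 region. Its neighbour at 96301409 to 96302286 scored 2336 and lay 3.51 kb from H3K9me3. The peaks at 96231879 to 96232576 (score 1879), 96961739 to 96962378 (score 1588) and 96255170 to 96255797 (score 1542) followed, at 23.0, 37.3 and 42.0 kb. Among these top-ranked peaks, the first pair stood close to H3K9me3 and the others did not. A lower-ranked peak above 1000, at 96144606 to 96145423, stood closer still, at 2.54 kb.

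**Figure D1:**
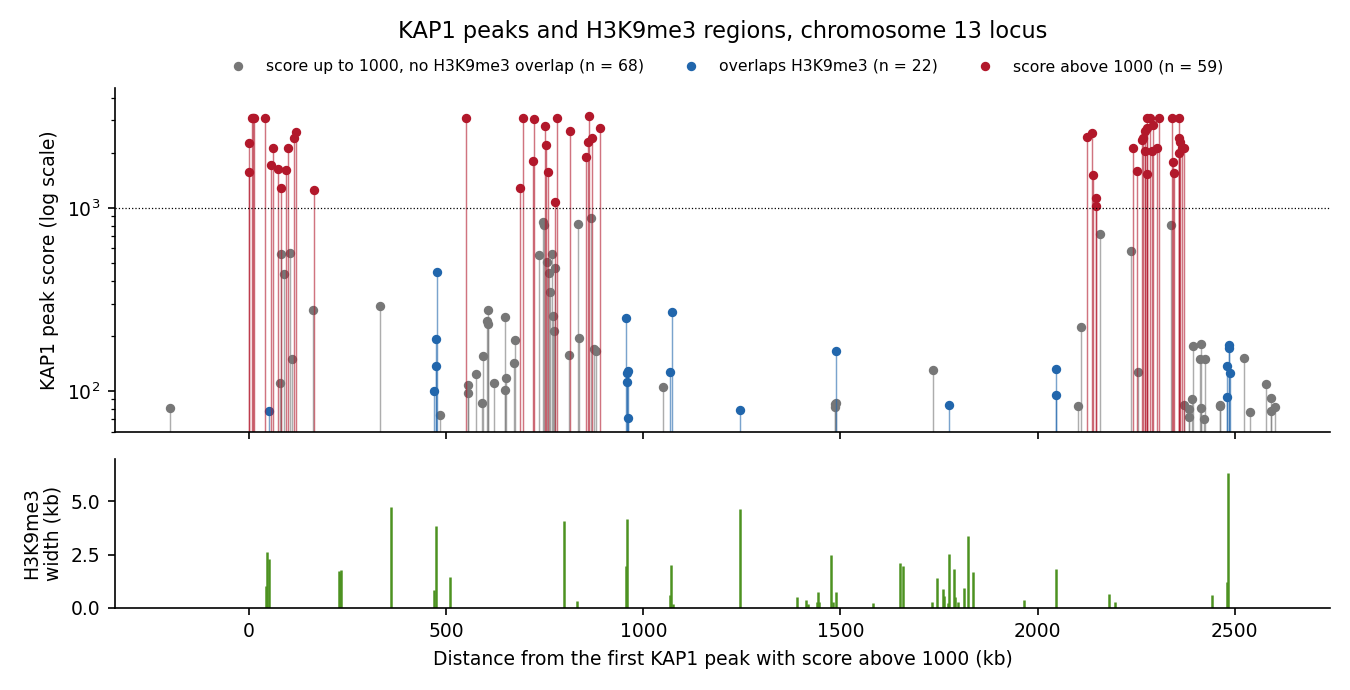
Upper panel: score (log scale) of each of the 149 KAP1 peaks of the chromosome 13 locus against distance in kb from the first peak above 1000, coloured by score class and overlap with H3K9me3; the dotted line is a score of 1000. Lower panel: width in kb of each of the 49 H3K9me3 regions. The 59 peaks above 1000 stand in separate groups, and the 22 overlapping peaks stand mostly outside them.

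None of the 67 KAP1 peaks above 1000 overlapped H3K9me3 (at least 1 bp shared). A count of 0 of 67 allows a share of up to 4.48% by the limit of 3 counts, and up to 5.42% by the Wilson interval. Over the whole list, 7.74% of the 323 peaks above 1000 overlapped, and outside the loci 25 of 256 did (9.77%, interval 6.70 to 14.0), so the interval of the loci, 0 to 5.42%, lies just below that of the other peaks of that score. Among the 117 peaks of the loci with a score up to 1000, 25 overlapped (21.4%, interval 14.9 to 29.6), against 44.7% of such peaks in the whole list and 44.9% outside the loci. Together 13.6% of the members overlapped (interval 9.38 to 19.3), against 44.1% of the list. Low shares were also found in other windows dense in KAP1 peaks, whose values are given with the comparison of windows. The overlapping peaks scored from 71.3 to 443.9, with a median of 128.8, and 23 of the 25 had at least 50% of their length covered by H3K9me3.

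KAP1 peaks of intermediate score, from 200 to 1000, overlapped H3K9me3 far less often here than in the pooled rest of the list. Of 41 peaks of the loci in this range, 3 overlapped H3K9me3 (7.32%, interval 2.52 to 19.4), while outside the loci 2514 of 3383 did (74.3%, interval 72.8 to 75.8). On chromosome 13 it was 3 of 28 and on chromosome 3 it was 0 of 13. In a window of chromosome 6 dense in KAP1 peaks, from 114353478 to 114873133, none of 106 peaks overlapped H3K9me3. Their scores reached 771.9, with an upper quartile of 197.1, so low overlap at intermediate scores was not confined to the loci. The range from 200 to 1000 was not counted separately in that window or in the other windows compared below. Up to a score of 200, 22 of 76 peaks of the loci overlapped (28.9%, interval 19.96 to 39.96), against 38.5% outside (interval 37.8 to 39.3). These ranges were chosen after the values were seen, and neighbouring peaks are not independent, so no test of the difference is given.

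**Figure D2:**
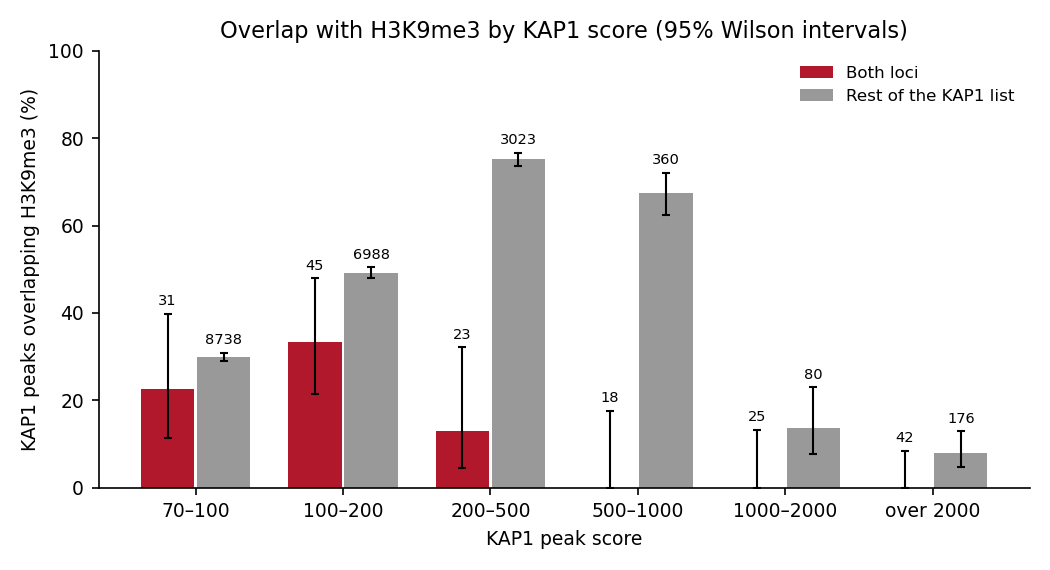
Share of KAP1 peaks that overlap H3K9me3 in each range of KAP1 score, for the loci (red) and the rest of the KAP1 list (grey), with 95% Wilson intervals; the number over each bar counts its peaks. In the loci the share is 0% in the ranges above 500, and outside them it is 75.1% from 200 to 500 and 67.5% from 500 to 1000. The rest of the list is pooled and not matched for KAP1 density.

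On chromosome 13 the peaks above 1000 had a larger median distance to H3K9me3 than the other peaks, with overlapping peaks counted as 0. Over both loci the median for peaks above 1000 was 43.8 kb (interval of the median 41.0 to 67.5), and none was closer than 2.54 kb. For peaks up to 1000 it was 25.3 kb (interval 16.5 to 36.2), with overlapping peaks counted as 0. Within 10 kb of H3K9me3 stood 5 of the 67 peaks above 1000 (7.46%) and 40 of the 117 others (34.2%). Those 40 include the 25 overlapping peaks, so these distances largely repeat the difference in overlap. Distances of the peaks without overlap were not compared by class. The same order held over the whole list, with 33.1% of peaks above 1000 and 66.6% of the others within 10 kb, at medians of 24.1 and 0.751 kb. The difference within the loci came from chromosome 13, where 2 of 59 peaks above 1000 (3.39%) and 29 of 90 others (32.2%) stood within 10 kb. The 29 include 22 overlapping peaks. The medians were 55.7 kb (interval 42.1 to 73.5) and 30.1 kb (interval 19.7 to 44.9), and these intervals overlapped. On chromosome 3 it was 3 of 8 (37.5%) and 11 of 27 (40.7%), and the interval of the median for the 8 peaks, 2.54 to 42.0 kb, contained that of the others, 4.69 to 30.5 kb.

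The 5 peaks above 1000 within 10 kb of H3K9me3 are named here after their values were seen. On chromosome 13 they were at 21291795 to 21292609 (score 3100, 3.23 kb) and at 21307067 to 21307716 (score 1724, 3.44 kb), on either side of the same H3K9me3 block. On chromosome 3 they were the first-ranked pair described above and the peak at 96144606 to 96145423 (score 1163, 2.54 kb).

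**Figure D3:**
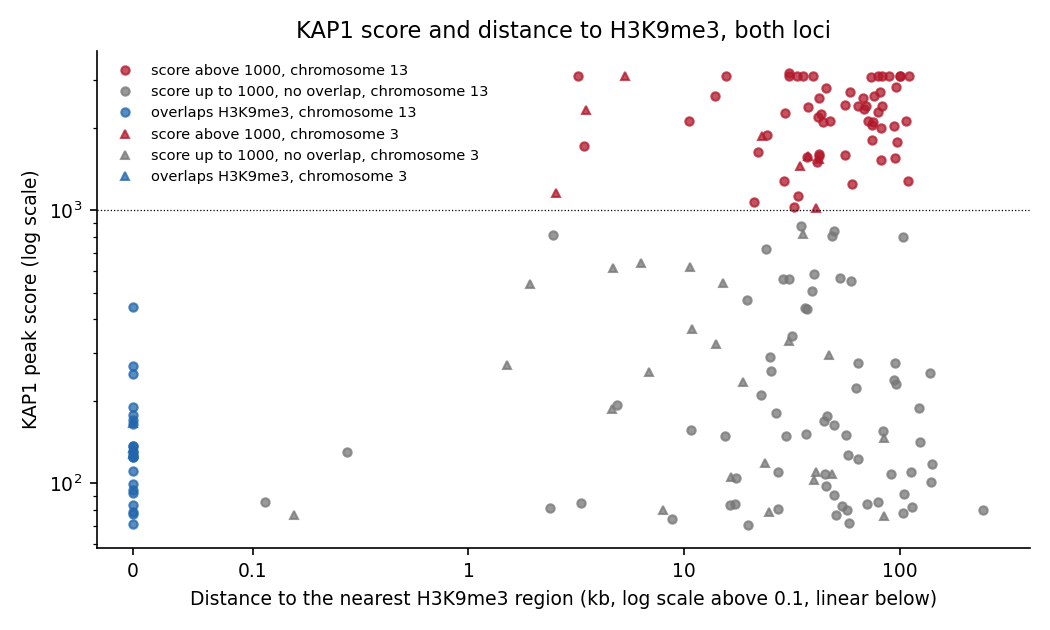
KAP1 peak score (log scale) against distance in kb to the nearest H3K9me3 region for the 184 peaks, with chromosome 13 as circles and chromosome 3 as triangles; overlapping peaks are at 0. No peak with a score over 443.9 is at 0, and the closest peak above 1000 is 2.54 kb away.

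The loci held 18 peaks with scores from 500 to 1000 and 25 with scores from 1000 to 2000. Whether the scores break at the cut of 1000 was not tested. Just above it on chromosome 13 were peaks with scores of 1028, 1077, 1132, 1251 and 1277, starting at 23400543, 22027010, 23399293, 21418215 and 21332608. Just below it were peaks with scores of 879, 838, 816, 803 and 802, starting at 22118173, 21998623, 22085722, 21999559 and 23589711. On chromosome 3 the scores above were 1020, 1163, 1456, 1542 and 1588, at 96256291, 96144606, 96262685, 96255170 and 96961739. Those below were 822, 642, 619, 618 and 544, at 96261595, 96154767, 96186594, 96202622 and 96191140. None of these 20 peaks overlapped H3K9me3, on either side of the cut.

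The spacing of KAP1 peaks was close in both score classes. A peak above 1000 had its nearest KAP1 neighbour at a median gap of 1.56 kb between edges (interval 0.715 to 2.50), and a peak up to 1000 at 1.65 kb (interval 1.05 to 2.62), so the intervals overlapped almost wholly. The whole list had a median gap of 5.50 kb, but its peaks above 1000 had one of 1.64 kb, close to that of the same class in the loci, and its other peaks one of 5.69 kb. Another peak stood within 10 kb for 91.3% of the members, against 54.2% of the list, and within 250 bp for 38 of 184 (20.7%), against 13.1%. By class, 15 of 67 peaks above 1000 (22.4%) and 23 of 117 others (19.7%) had a neighbour within 250 bp, against 29.4% and 12.9% over the list. The peaks above 1000 were wider, with a median of 750 bp (interval 703 to 800) against 613 bp (interval 586 to 657), and over the list the medians were 941 and 647 bp.

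High-scoring peaks stood next to each other. Of the 67 peaks above 1000, 43 (64.2%) had another peak above 1000 as their nearest neighbour, where 36.4% of the members were of that class. On chromosome 13 this held for 39 of 59 peaks above 1000 (66.1%), where 39.6% were of that class. On chromosome 3 it held for 4 of 8, where 22.9% were. Over both loci, 96 of the 117 peaks up to 1000 (82.1%) had a nearest neighbour of their own class, where 63.6% were of that class. Of the 182 pairs of adjacent peaks, 41 joined peaks above 1000, 90 joined peaks up to 1000 and 51 were mixed. Pairs above 1000 were separated by a median of 2.90 kb (interval 0.933 to 4.58), and 8 of the 41 by less than 250 bp. Of the 51 mixed pairs 1 was that close, and of the 90 pairs up to 1000 there were 11, with a median gap of 4.204 kb (interval 2.60 to 8.64).

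KAP1 peaks no more than 10 kb apart were chained into runs. This gave 16 single peaks and 40 runs of at least 2 peaks, which held 168 of the 184 peaks and spanned 506 kb, or 12.7% of the 4 Mb. A peak above 1000 was present in 19 runs, and 21 had none. Of the 103 peaks in runs with a peak above 1000, 2 overlapped H3K9me3 (1.94%, interval 0.534 to 6.81). Of the 65 peaks in the other runs, 21 did (32.3%, interval 22.2 to 44.4). The peaks up to 1000 can be split the same way: 2 of 39 overlapped in runs with a peak above 1000 (5.13%, interval 1.42 to 16.9), and 23 of 78 elsewhere (29.5%, interval 20.5 to 40.4).

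Along chromosome 13, the first run of at least 5 peaks spanned 21252278 to 21265145, and all 5 of its peaks scored above 1000, with a lowest score of 1578. The next, 21325658 to 21372182, had 11 peaks, 6 of them above 1000. Neither contained an overlapping peak. The run at 21721686 to 21737871 differed from both, since none of its 5 peaks scored above 443.9 and 4 overlapped H3K9me3. The run at 21841933 to 21859866 also had 5 peaks, with scores from 85.8 to 275.5, but no overlap.

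Next came the longest run by number of peaks, 21988495 to 22033184, with 15 peaks, 5 of them above 1000, a median score of 558.6 and no overlap. The run at 22107391 to 22143314 had 8 peaks, 5 of them above 1000, and no overlap. In the run at 22207597 to 22213885 the reverse held: 5 peaks with scores from 71.3 to 251.1 all overlapped H3K9me3. No further run of 5 peaks occurred until 23390462 to 23409709, where 4 of 5 peaks scored above 1000.

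The run at 23517138 to 23559416 had 12 peaks that all scored above 1000, as did the 5 peaks of the run at 21252278, with a lowest score of 1531 and a median of 2521. It was followed by 23589711 to 23623367, with 11 peaks, 9 of them above 1000. From there to the end of the locus no peak scored above 180.9. The run at 23663118 to 23677962 had 5 peaks, with scores from 70.3 to 180.9, and no overlap, while all 5 peaks of the run at 23730989 to 23739599, with scores from 92.4 to 178.1, overlapped. On chromosome 3 the runs of at least 5 peaks were 96130833 to 96155346 (5 peaks, 1 above 1000, no overlap) and 96283224 to 96313660 (6 peaks, 2 above 1000, 1 overlap, at a score of 128.5). The 3 chromosome 13 runs with 4 or more overlapping peaks held 14 of the 25 overlaps of both loci.

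**Figure D4:**
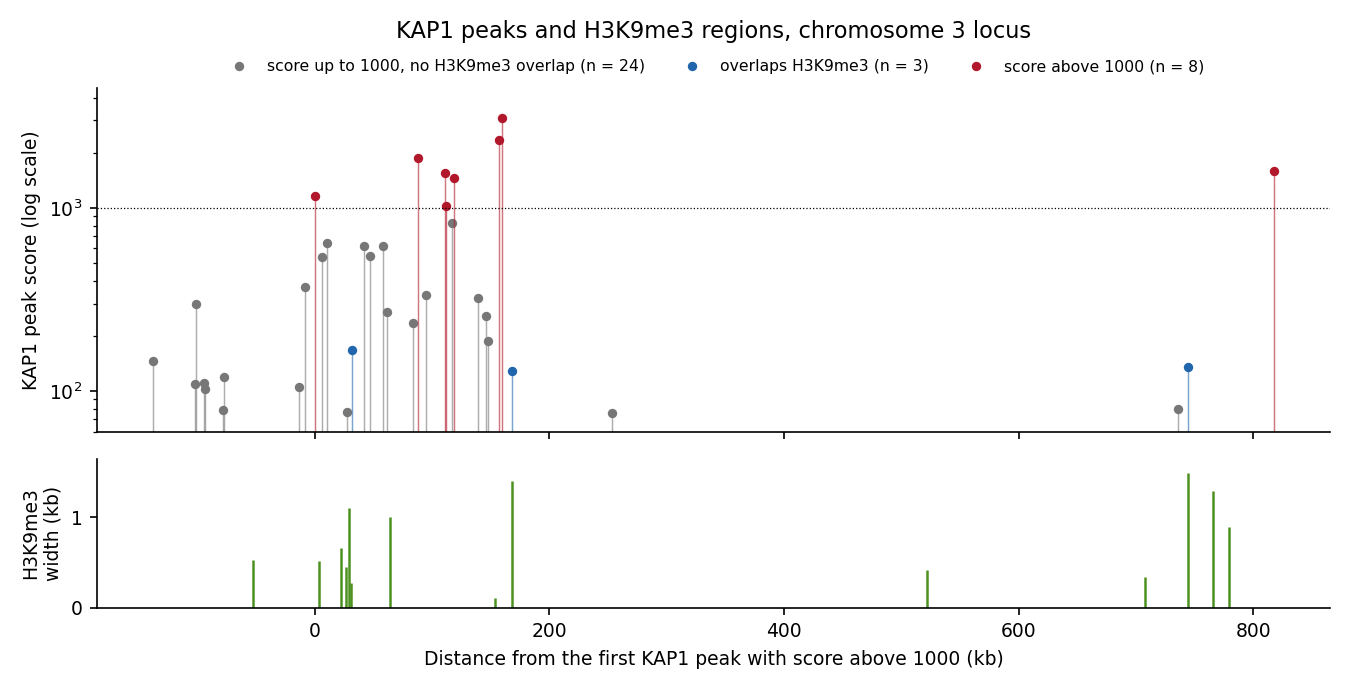
Upper panel: score (log scale) of each of the 35 KAP1 peaks of the chromosome 3 locus against distance in kb from the first peak above 1000, coloured by score class and overlap; the dotted line is a score of 1000. Lower panel: width in kb of each of the 14 H3K9me3 regions. Of the 8 peaks above 1000, 7 stand in a single stretch of 161.2 kb that also holds 7 H3K9me3 regions.

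To see what lay between the high-scoring peaks, those above 1000 were chained at 100 kb, a distance chosen after the data were seen. On chromosome 13 this gave stretches of 166.8 kb (15 peaks above 1000), 203.7 kb (15) and 245.7 kb (28), and 1 single peak at 21802246 to 21803120. On chromosome 3 it gave a stretch of 161.2 kb (7) and 1 single peak. Inside stretches, KAP1 peaks stood at 13.02 to 15.2 per 100 kb, leaving out the single peaks. Between and beyond them the density varied from 0.396 to 10.3 per 100 kb on chromosome 13. Stretches begin and end with a peak above 1000 and the intervals hold none, so part of this difference follows from the definition.

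The intervals between stretches on chromosome 13 were unlike each other. From 21419045 to 21802245 there were 6 KAP1 peaks, 4 of which overlapped H3K9me3, and 7 H3K9me3 regions. From 21803121 to 21939603 there were 14 KAP1 peaks, with scores of 85.8 to 275.5, and 0 H3K9me3 regions. The longest interval, 22143315 to 23376980, spanned 1.23 Mb and held 19 KAP1 peaks with a median score of 111.2, 12 of which overlapped H3K9me3. It also held 32 of the 49 H3K9me3 regions of the locus (65.3%) in 41.1% of its length. Of the 32, 24 had no KAP1 peak and 8 held one, a larger share than the 15.4% of the whole H3K9me3 list. Beyond the last stretch, from 23622677, there were 23 KAP1 peaks with a median score of 91.9 and 3 H3K9me3 regions. From its start to 21252277 the locus held 1 KAP1 peak, with a score of 80.3, and 0 H3K9me3 regions. High-scoring KAP1 peaks came next, then an interval with H3K9me3. After the single peak at 21802246 to 21803120 came an interval of low-scoring KAP1 peaks without H3K9me3. High scores, the longest interval, high scores again and low scores followed. H3K9me3 did not simply alternate with high scores. It covered 3.59% of the stretch at 21252278 to 21419044, 4.18% of the interval after it and 3.27% of the longest interval. The stretches starting at 21939604 and 23376981 had 2.17% and 0.387%. In the longest interval KAP1 peaks stood at 1.54 per 100 kb, sparser than in the stretches but denser than the 7.57 per Mb of the whole list. The gene families of the other build are given in their own order above, and the 2 orders were not aligned.

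On chromosome 3, 9 KAP1 peaks with scores of 78.6 to 367.2 came before the stretch, and 4 followed in the next 655.9 kb. Here 7 of the 14 H3K9me3 regions lay inside the stretch.

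H3K9me3 was not absent from the stretches of high-scoring peaks. It covered 1.84% of their length on chromosome 13, against 2.71% between them, and 2.55% on chromosome 3, against 0.759% between them, so the loci differed in direction. Over both loci it covered 1.99% of the stretches and 2.201% of the remainder, and 1.54% over the whole list. KAP1 peaks up to 1000 inside stretches nevertheless seldom overlapped H3K9me3, at 2 of 41 (4.88%, interval 1.35 to 16.1), against 23 of 76 between stretches (30.3%, interval 21.1 to 41.3). On chromosome 3 alone it was 1 of 14 and 2 of 13. The peaks inside stretches also scored higher, with a median of 437.1 against 110.9. In the score range from 200 to 1000, 0 of 30 overlapped inside and 3 of 11 between.

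**Figure D5:**
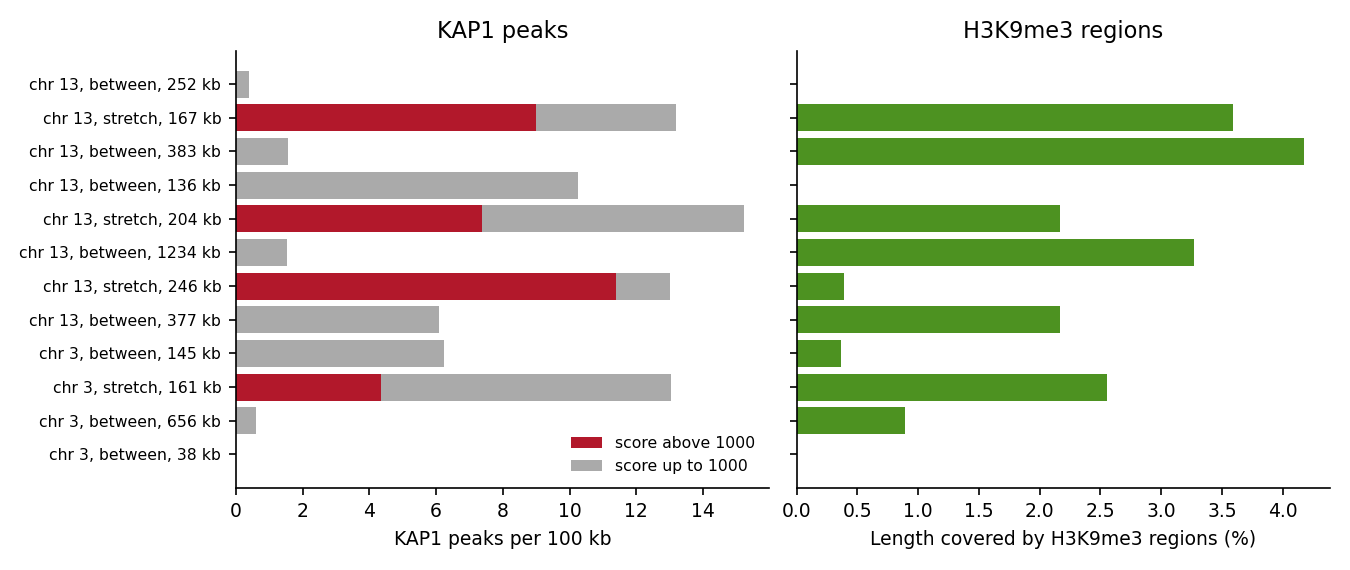
Left: KAP1 peaks per 100 kb, split by score class, in each stretch of peaks above 1000 and in each interval between stretches or up to the locus boundary, in order of position. Right: percentage of the same length covered by H3K9me3 regions; single peaks are left out. Stretches hold 13.02 to 15.2 KAP1 peaks per 100 kb, and H3K9me3 coverage ranges from 0.387% to 3.59% in them. Intervals hold no peak above 1000 by definition.

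H3K9me3 regions chained at 10 kb formed 39 blocks, 25 of which were a single region. Of the 39, 32 started outside every KAP1 run of at least 2 peaks (82.1%, interval 67.3 to 91.0). Runs spanned only 12.7% of the length, so a share of about this size is what length alone would give. On chromosome 13, 25 of 28 blocks started outside runs, and on chromosome 3, 7 of 11 did. Those 32 starts lay a median of 42.0 kb from the nearer run (interval 20.3 to 111.7). Of them, 7 lay within 10 kb of a run and 15 over 50 kb from one, up to 271.8 kb. Of the 7 blocks that started inside a run, 3 did so in a run with a peak above 1000, and all 3 were on chromosome 3. In total 27 of the 39 blocks touched no run. Single KAP1 peaks were not counted as runs, so a block far from every run could still hold a KAP1 peak, as did the block at 22496206 to 22500826.

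The block with the most regions, 23026040 to 23050529 on chromosome 13, had 5 regions that covered 5360 bp of its 24.5 kb. It started 271.8 kb before the next run, but 1 of its regions held a single KAP1 peak, at 23027448 to 23028180. Among blocks that started between runs, the block at 21295844 to 21303630 reached into a run with peaks above 1000. It had 3 regions, started 30.7 kb after the run before it and 6.78 kb ahead of the next, and overlapped a KAP1 peak with a score of 77.6. On chromosome 13 the block at 22048730 to 22052811 stood in the gap between high-scoring runs, its first base 15.5 kb after one and its last base 10.7 kb before the next, and held no KAP1 peak.

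Of the 63 H3K9me3 regions, 16 held a KAP1 peak (25.4%, interval 16.3 to 37.3), against 15.4% of the whole H3K9me3 list. The share was 26.5% on chromosome 13 and 21.4% on chromosome 3. Regions with KAP1 were wider, with a median of 1904 bp (interval 850 to 3855) against 663 bp (interval 450 to 1046) for those without. Of the 13 regions of at least 2 kb, 7 held KAP1 (53.8%, interval 29.1 to 76.8), close to the 58.1% outside the loci. Of the 50 narrower ones, 9 did (18%, interval 9.77 to 30.8), against 9.86% outside. Up to 4 KAP1 peaks stood in a single region.

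The H3K9me3 regions with the highest score on chromosome 13 did not all hold KAP1. The first, at 21609943 to 21614674, scored 577 with the nearest KAP1 peak 24.9 kb away, and the third, at 22048730 to 22052811, scored 496 and lay 10.7 kb away. The others, at 23733000 to 23739354 (score 546), 22496206 to 22500826 (score 425) and 22209529 to 22213686 (score 332), held KAP1. On chromosome 3 the regions were narrower and scored lower. The first were at 96888394 to 96889885 (1492 bp wide) and 96312018 to 96313421 (score 96), which held KAP1. Those at 96909923 to 96911208 (score 94), 96173265 to 96174369 (score 84) and 96207895 to 96208900 (score 81) did not, at 20.2, 0.712 and 1.51 kb from it. What the H3K9me3 score measures is not known, so it is not compared with the KAP1 score.

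The loci were set beside other 1 Mb windows dense in KAP1 peaks, picked for their KAP1 density or scores. How near each came to the loci among all windows is not shown. In a window of chromosome 8, with KAP1 peaks from 126061992 to 126855446, 40 of 59 peaks scored above 1000 and 5 of the 40 overlapped H3K9me3 (12.5%, interval 5.46 to 26.1). In a window of chromosome 6, with peaks from 47600322 to 47975259, 19 of 47 scored above 1000 and 4 of the 19 overlapped (21.1%, interval 8.51 to 43.3). The interval of the histone and tRNA loci for this class, 0 to 5.42%, ended just under the lower bound of the chromosome 8 window and below that of the chromosome 6 window; the differences were not tested. Over all KAP1 peaks of a window, the shares with H3K9me3 were 8 of 59 on chromosome 8 (13.6%, interval 7.03 to 24.5) and 12 of 47 on chromosome 6 (25.5%, interval 15.3 to 39.5), and both intervals overlapped that of the loci. For peaks up to 1000 they were 3 of 19 (15.8%, interval 5.52 to 37.6) and 8 of 28 (28.6%, interval 15.3 to 47.1), on either side of the 21.4% of the loci. Peaks were packed more tightly in those windows, with median gaps of 145 and 74 bp to the nearest KAP1 peak, against 1646 bp in the loci. Their peaks above 1000 were wider, with medians of 1372 and 2495 bp, against 750 bp. Another window of chromosome 6, with peaks from 114353478 to 114873133, had 106 KAP1 peaks, none above 1000 or overlapping H3K9me3, and a median gap of 351.5 bp.

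Both lists carry numbered names that rise with position, so numbers missing from the lists can be counted. On chromosome 13 the KAP1 members were 149 of 178 consecutive numbers (83.7%) and on chromosome 3 they were 35 of 47 (74.5%), against 53.7% over the whole KAP1 list. For H3K9me3 the shares were 83.1% and 82.4%, against 84.3%. The lowest KAP1 score deposited was 70, and 149 of the 184 members scored above the median of the list, 106.1.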

How the data were processed

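Chromatin immunoprecipitation libraries of proliferating C2C12 myoblasts were read from 2 deposited lists. The submitters' processing notes name Bowtie2 2.2.1 and mm9. The score in each list is the value the authors deposited; the sources used here do not say what it measures, which settings or control were used, or how reads that match several gene copies were handled, and depth is unknown. Members were assigned by midpoint. Overlap meant at least 1 shared bp, gaps were measured between edges, and positions are mm9, counted from 1. Shares have 95% Wilson intervals and medians have order-statistic intervals of at least 95%. An upper limit for a count of 0 used 3 counts. No test was run, since each antibody has 1 library. Gene order came from RefSeq GRCm38.p6 by symbol and gene type, with genes of the 3 families chained at 300 kb. Regions were named by a rule: the 5 highest scores per locus and list, the 5 peaks on each side of the score cut, and runs or blocks of at least 5 regions. The members, lists and score cut were chosen with earlier results of these data known. Overlap and chaining were tested on simulated data. Python 3.11.15, numpy 2.4.6, pandas 2.3.3, scipy 1.17.1 and matplotlib 3.10.9 were used.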

Additional observations from a re-analysis of the deposited data

How the results depend on the processing

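The overlap among peaks above 1000 stayed at 0% in every alternative run, but these runs add no separate support. A score cut of 2000, 50% of the peak covered, the upper 50% of the H3K9me3 list and each locus alone could only return 0. A score cut of 500 and an H3K9me3 region within 1 kb were settled by values given above. No overlapping peak scored over 443.9, and no peak above 1000 was closer than 2.54 kb. For the 8 peaks of chromosome 3 alone the interval reached 32.4%. The values that left the interval or the 1.5-fold range of the main value were 6. On chromosome 3 alone, 11.1% of peaks up to 1000 and 8.57% of all peaks overlapped, and the median gap of peaks up to 1000 was 3677 bp. A score cut of 2000 left 42 peaks. The median gap of peaks above 1000 to their own class was 2901 bp. Chaining at 20 kb gave 30 KAP1 groups, singles included, instead of 56. The other 42 values stayed within those limits. They include stretches chained at 50 or 200 kb, added after the data were seen, where 3.33% and 3.64% of peaks up to 1000 overlapped inside and 27.6% and 37.1% between. What caused them was not tested. No paired analysis was possible because each antibody has a single library, which also means that no leave-one-out value exists. With depth unknown, a region missing from a list may lie below the calling threshold.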
